A study of Mus musculus with 12 samples.

Results

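The 10 genes described here encode 7 SMAD proteins (Smad1, Smad2, Smad3, Smad4, Smad5, Smad6 and Smad7) and 3 receptors of the TGF-beta family (Tgfbr1, Bmpr1b and Bmpr2). They were looked up by symbol in the array's annotation. All 10 were found, each with 1 probe set, among 19938 genes measured on 35399 probe sets. Expression was measured on 12 arrays in cumulus cells of mice. These cells descend from granulosa cells and enclose the oocyte. Cumulus-oocyte complexes came from 129SV females of 21 to 26 days, 44 h after 5 IU of equine chorionic gonadotropin. They were cultured whole for 8 h, and the oocytes were removed before RNA was extracted. Each of the 3 groups had 4 arrays. The FSH/EGF group received 50 mIU/ml FSH, 10 ng/ml EGF and 293H control medium at 0.125% by volume. The GDF9 group received GDF9 at 20 ng/ml, and its labels name no control medium. The control group received 293H control medium at 0.125%. In all groups the complexes were collected in medium with 1 micromolar cilostamide, and the cells' own oocytes were present during culture. Each array held RNA from 2 pooled biological replicates, of 8 made per condition, and p-values measure the spread between such pools.

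Ligands of the TGF-beta family bind a type II receptor kinase, which activates a type I receptor kinase, which in turn phosphorylates receptor-activated SMADs. These join Smad4 and enter the nucleus, while Smad6 and Smad7 hold the pathway back. GDF9, a growth factor of the oocyte, is known to signal through Bmpr2 and Tgfbr1 to Smad2 and Smad3 in granulosa cells, whereas BMP15 and BMP6 signal through Bmpr1b and other type I receptors to Smad1 and Smad5. Loss of Bmpr1b in mice is known to impair cumulus expansion and fertility.

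The values were log2 signals as deposited. The group means of all 10 genes were above 5.53, the highest median of an array. Signals of different probe sets were not set against each other, since probes differ in how strongly they bind. Of the 9 measured markers of cumulus and granulosa cells, means per array ran from 7.002 to 7.16 with FSH/EGF, from 8.52 to 8.57 with GDF9 and from 8.47 to 8.64 in control. Of these, 7 were lower with FSH/EGF than in control at an adjusted p under 0.05, and the other 2, Amh and Aldoc, had lower means that did not pass it. The mean of 14 oocyte markers was 5.96 on control array 4, against 4.85 to 4.97 on the other control arrays. It was 5.09 on FSH/EGF array 3, against 4.73 to 4.795 on the other FSH/EGF arrays. Control array 4 held the highest control value for 7 of the 10 genes, and control array 1 the lowest for 7 of them. Means per array of 7 endothelial markers ran from 5.25 to 5.28 with FSH/EGF, from 4.71 to 4.85 with GDF9 and from 4.76 to 4.86 in control. Cdh5, at 8.16 with FSH/EGF and 4.98 in control, and Tek, at 4.91 with FSH/EGF and 4.62 in control, were higher, the other 5 were not called, and the median difference of the list was -0.033. Those of 6 surface epithelial markers ran from 6.66 to 6.76 with FSH/EGF, from 5.72 to 5.98 with GDF9 and from 5.73 to 6.12 in control. Here Krt8 (10.82 with FSH/EGF, 7.80 in control) and Krt18 (8.72 with FSH/EGF, 6.01 in control) were higher, Msln was lower (5.14 with FSH/EGF, 5.41 in control), and the median difference of the list was -0.14. For 7 theca and stroma markers the means were 5.32 to 5.41 with FSH/EGF, 5.76 to 5.98 with GDF9 and 5.84 to 6.01 in control. Acta2 (6.37 with FSH/EGF, 8.71 in control), Pdgfra and Col1a1 were lower, the other 4 were not called, and the median difference was -0.29. For 7 leukocyte markers the means lay between 4.72 and 4.99 on all arrays. Cd68 (5.85 with FSH/EGF, 5.35 in control) was higher, the other 6 were not called, and the median difference was -0.18. The part of other cells in the results below was not tested.

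With FSH and EGF, 3 receptor-activated SMAD genes rose and 2 BMP receptor genes fell relative to control medium. Smad3 rose 2.64-fold, Smad1 1.54-fold and Smad2 1.30-fold, while Bmpr1b fell to 0.479 times and Bmpr2 to 0.681 times the control signal. The other 5 genes, Smad4, Smad5, Smad6, Smad7 and Tgfbr1, had lower means with FSH/EGF but did not pass the threshold, an adjusted p of 0.05 over all rows in limma, a linear model fitted across all probe sets. The count of 5 of 10 called stands beside 29.0% of all rows and 36.8% of all genes called in this comparison. With the dimmest 40% of rows left out, which removed 0 of the 10 genes, 9386 of 21239 rows were called. The arrays of FSH/EGF and control did not overlap for 5 of the 10 genes and for 33.2% of rows. The median difference of the 10 genes was -0.28 (log2), against -0.063 over all rows. Most rows, 26153 of 35399, had a mean signal under 7. Over rows of 7 to under 9 the median was 0.19 and over those of 9 or more 0.080, values that depended on scaling, as given below. As RNA was taken from bulk cells, fewer cells of a type and less RNA per cell cannot be told apart.

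**Figure D1:**
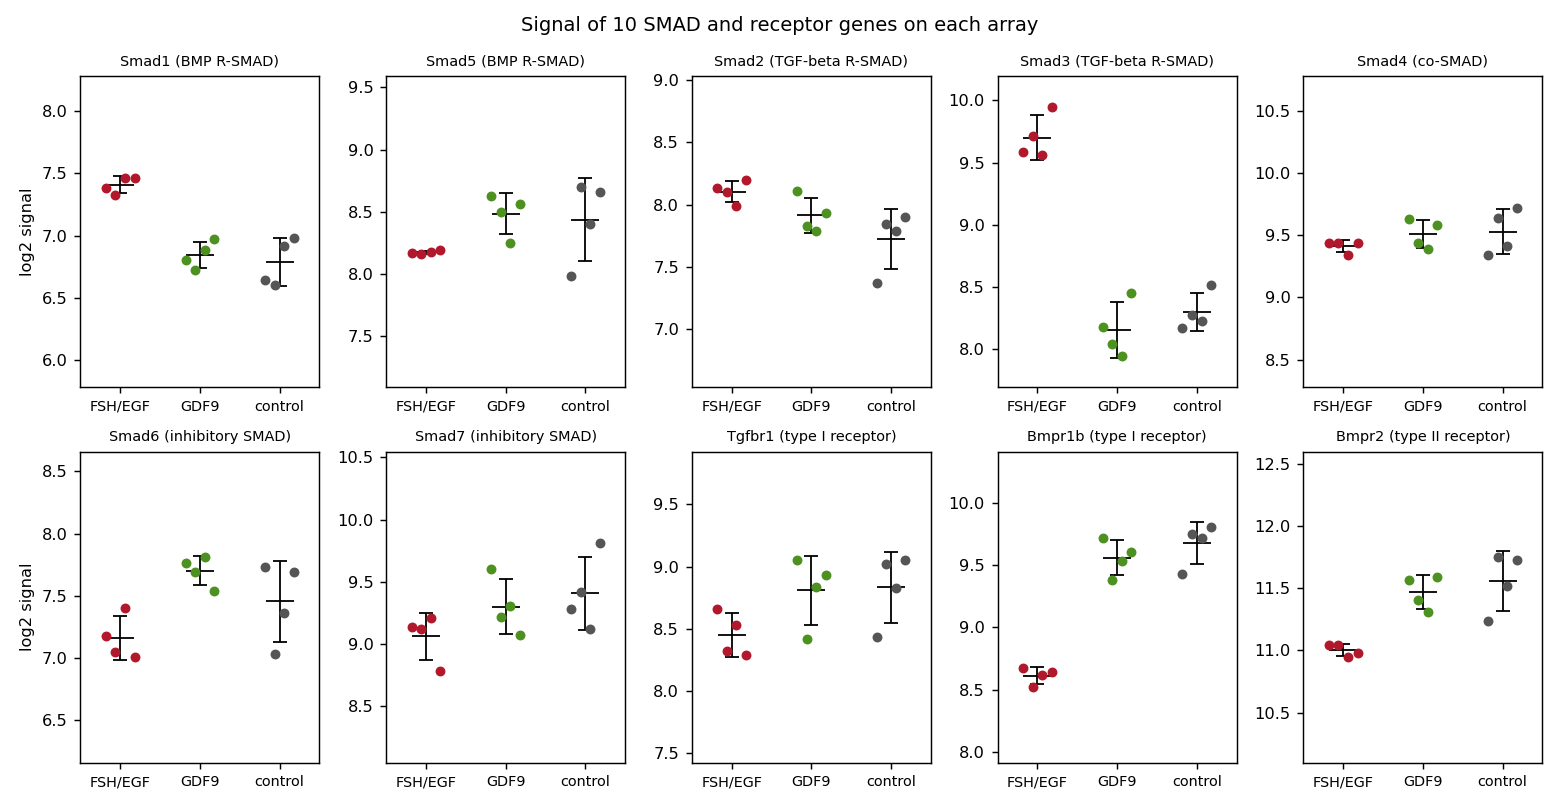
Log2 signal of each gene on each array (points; 4 arrays per group in the order FSH/EGF, GDF9, control), with mean and SD as bars; every panel spans 2.5 log2 units. The FSH/EGF points of Smad3 and Smad1 lie above all others, those of Bmpr1b and Bmpr2 lie below all others, and GDF9 and control points overlap in all 10 panels.

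Smad3, which with Smad2 carries GDF9 and activin signals in granulosa cells, stood at log2 signals of 9.59, 9.71, 9.56 and 9.95 on the FSH/EGF arrays. It stood at 8.18, 8.04, 7.94 and 8.46 on the GDF9 arrays and at 8.17, 8.28, 8.23 and 8.52 on the control arrays. Every FSH/EGF array was thus more than 1 log2 unit above every array of the other groups, and the GDF9 and control arrays overlapped. The rise over control was 1.40 ± 0.12 on the log2 scale (SE, n = 4 and 4; limma adjusted p = 2.83e-06), and the difference from GDF9 was 1.55 ± 0.12.

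Smad2, which is activated by the same receptors as Smad3, was at 8.13, 8.10, 7.99 and 8.20 with FSH/EGF. The GDF9 arrays were at 8.11, 7.83, 7.79 and 7.93, and the control arrays at 7.37, 7.84, 7.79 and 7.90. FSH/EGF arrays lay above all control arrays, and control array 1 was the lowest by far, but GDF9 array 1 fell within the FSH/EGF range. The rise over control was 0.38 ± 0.11 (limma adjusted p = 0.0257). This call ended without any 1 of FSH/EGF arrays 1, 2 and 4 (adjusted p = 0.0615, 0.0524 and 0.0676), and after renewed quantile normalization (0.15, adjusted p = 0.269). Without control array 1 the rise was 0.26 and was still called. FSH/EGF and GDF9 arrays did not differ past the threshold (0.19 ± 0.11, 95% interval -0.058 to 0.44, limma adjusted p = 0.286). Within arrays, the log2 ratio of Smad3 to Smad2 lay 0.88 to 1.18 above the control mean on the FSH/EGF arrays, -0.51 to -0.047 from it on the GDF9 arrays and -0.14 to 0.23 from it on the control arrays. The rise of Smad3 was larger than that of Smad2 on each FSH/EGF array, and this difference was not tested.

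Among the SMADs of the BMP branch, Smad1 was at 7.38, 7.33, 7.46 and 7.46 with FSH/EGF. It was at 6.81, 6.72, 6.88 and 6.97 with GDF9 and at 6.64, 6.60, 6.92 and 6.98 in control. All FSH/EGF values lay above those of both other groups, and the rise over control was 0.62 ± 0.095 (limma adjusted p = 0.000299). Smad5, a close relative of Smad1 with largely shared function, did not pass the threshold. Its FSH/EGF arrays were at 8.17, 8.16, 8.18 and 8.19, an SD of 0.014. The GDF9 arrays were at 8.63, 8.50, 8.25 and 8.56 and the control arrays at 7.98, 8.70, 8.41 and 8.66, so that control array 1 alone lay below the FSH/EGF arrays. The difference from control was -0.26 ± 0.14 (95% interval -0.56 to 0.040; limma adjusted p = 0.177). Without control array 1 it was -0.41 (adjusted p = 0.00819), and with array weights -0.37 (adjusted p = 0.0129). The log2 ratio of Smad1 to Smad5 lay 0.82 to 0.94 above the control mean with FSH/EGF, -0.17 to 0.29 from it with GDF9 and -0.45 to 0.31 from it in control.

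Smad4, the shared partner of the receptor-activated SMADs, had the narrowest span of group means. It was at 9.44, 9.44, 9.34 and 9.44 with FSH/EGF, at 9.63, 9.44, 9.38 and 9.58 with GDF9, and at 9.34, 9.64, 9.41 and 9.72 in control. The groups overlapped, and the difference of FSH/EGF from control was -0.12 ± 0.092 (95% interval -0.32 to 0.084; limma adjusted p = 0.366).

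The inhibitory SMAD genes had lower means with FSH/EGF than in the other groups. Smad6, which acts mainly on the BMP branch, was at 7.18, 7.05, 7.40 and 7.01 with FSH/EGF, at 7.76, 7.69, 7.81 and 7.54 with GDF9, and at 7.73, 7.04, 7.36 and 7.69 in control. The control arrays spanned almost the whole range, whereas FSH/EGF and GDF9 arrays did not overlap. The difference between FSH/EGF and GDF9 passed the threshold (-0.54 ± 0.14, limma adjusted p = 0.0162), but not without FSH/EGF array 4 (adjusted p = 0.0507). Against control it was -0.30 ± 0.14 (adjusted p = 0.146), and without control array 2 -0.44 (adjusted p = 0.0209). With 1 array left out, the smallest difference from control was -0.20, without control array 1. Smad7, which acts on both branches, was at 9.13, 9.12, 9.21 and 8.78 with FSH/EGF, at 9.60, 9.22, 9.30 and 9.07 with GDF9, and at 9.28, 9.42, 9.12 and 9.81 in control. The 3 groups overlapped, and the highest value was that of control array 4. FSH/EGF minus control was -0.35 ± 0.15 (95% interval -0.68 to -0.011, limma adjusted p = 0.113). With 1 array left out it ran from -0.44 to -0.21, the latter without control array 4.

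Of the 3 receptors, Bmpr1b had the largest fall. Its FSH/EGF arrays were at 8.67, 8.52, 8.62 and 8.64, its GDF9 arrays at 9.71, 9.38, 9.53 and 9.61, and its control arrays at 9.43, 9.75, 9.72 and 9.80. No FSH/EGF array came within 0.5 log2 units of any other array. The change from control was -1.06 ± 0.095 (limma adjusted p = 2.99e-06), and that from GDF9 -0.95 ± 0.095 (adjusted p = 9.09e-06). Bmpr2, the type II receptor shared by GDF9, BMP15 and BMP6, was at 11.04, 11.05, 10.94 and 10.98 with FSH/EGF. It was at 11.57, 11.40, 11.31 and 11.59 with GDF9 and at 11.23, 11.75, 11.52 and 11.73 in control. The FSH/EGF arrays lay below all others, by the least margin against control array 1. The change from control was -0.55 ± 0.11 (limma adjusted p = 0.00229). The fall of Bmpr1b was larger than that of Bmpr2, a difference that was not tested: the log2 ratio of Bmpr2 to Bmpr1b lay 0.44 to 0.65 above the control mean on the FSH/EGF arrays, against -0.083 to 0.12 on the control arrays.

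Tgfbr1, the type I receptor of GDF9 and TGF-beta, was at 8.66, 8.32, 8.53 and 8.29 with FSH/EGF, at 9.06, 8.42, 8.83 and 8.93 with GDF9, and at 8.43, 9.02, 8.83 and 9.05 in control. Control array 1 and GDF9 array 2 fell within the FSH/EGF range, and the others lay above it. The difference from control was -0.38 ± 0.16 (95% interval -0.73 to -0.033; limma adjusted p = 0.0943). Without control array 1 it was -0.51 (adjusted p = 0.0202), and with array weights -0.44 (adjusted p = 0.0110).

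**Figure D2:**
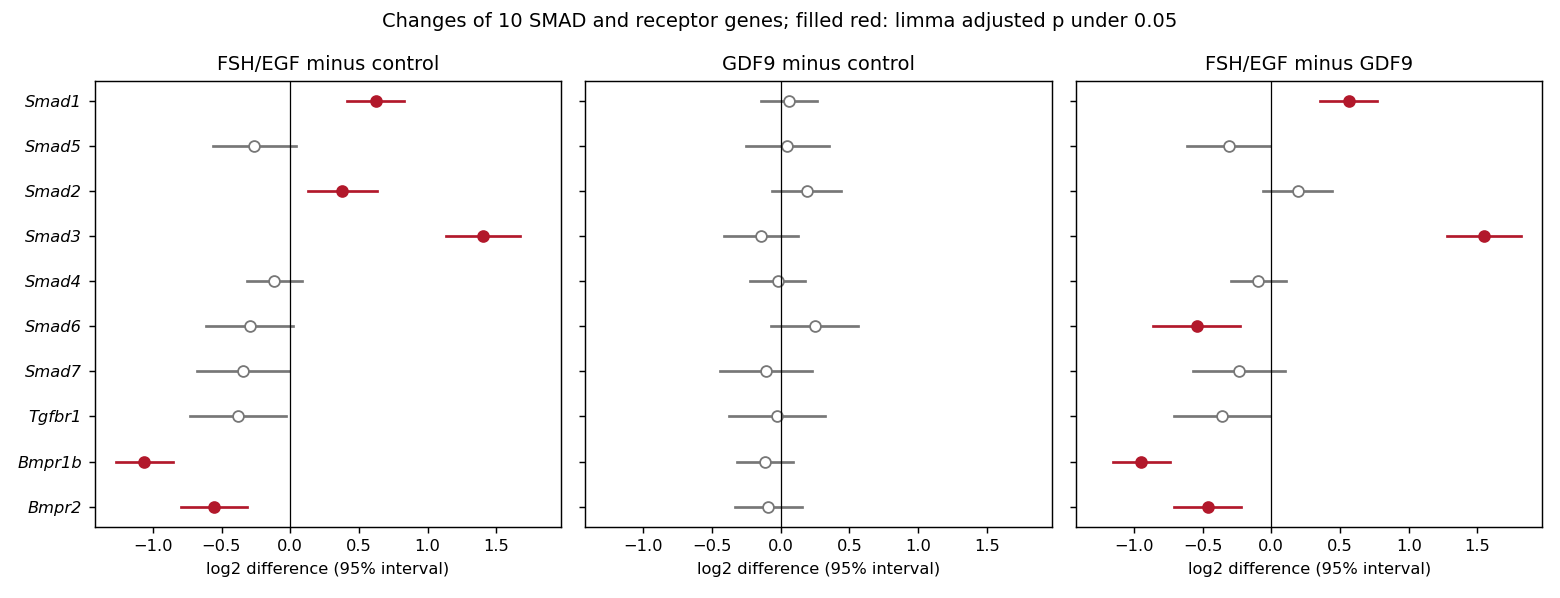
Log2 differences of the 10 genes with 95% intervals from limma in the 3 comparisons; filled red points passed an adjusted p of 0.05 over all rows. Smad3 at 1.40 and Bmpr1b at -1.06 are the extremes of FSH/EGF minus control, and all GDF9 minus control intervals cross 0.

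Scaling bore on these counts. The FSH/EGF arrays had a wider spread of signals, with upper quartiles from 7.18 to 7.22, against 6.99 to 7.14 on the GDF9 arrays and 6.97 to 7.07 on the control arrays. Among the 6606 rows with a mean signal of 7 to under 9, the median difference of FSH/EGF from control was 0.19 as deposited and -0.020 after renewed quantile normalization, a shift of -0.21. Over all rows the shift was 0.023. With that normalization 9 of the 10 genes were called, 2 higher (Smad1 and Smad3) and 7 lower (Bmpr1b, Bmpr2, Smad4, Smad5, Smad6, Smad7 and Tgfbr1), in place of 3 higher and 2 lower. Of all 35399 rows 9085 were then called, 4758 higher and 4327 lower, in place of 10269. Smad3 was then at 1.17, Smad1 at 0.45, Bmpr1b at -1.28 and Bmpr2 at -0.53. Tgfbr1 was at -0.60 (adjusted p = 0.00458), Smad7 at -0.57 (adjusted p = 0.0129), Smad6 and Smad5 at -0.48 each (adjusted p = 0.0331 and 0.0109), and Smad4 at -0.35 (adjusted p = 0.00464). All 10 genes kept the sign of their difference. With array medians made equal, 6637 rows were higher and 2588 lower with FSH/EGF, against 5856 higher and 4413 lower as deposited.

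**Figure D3:**
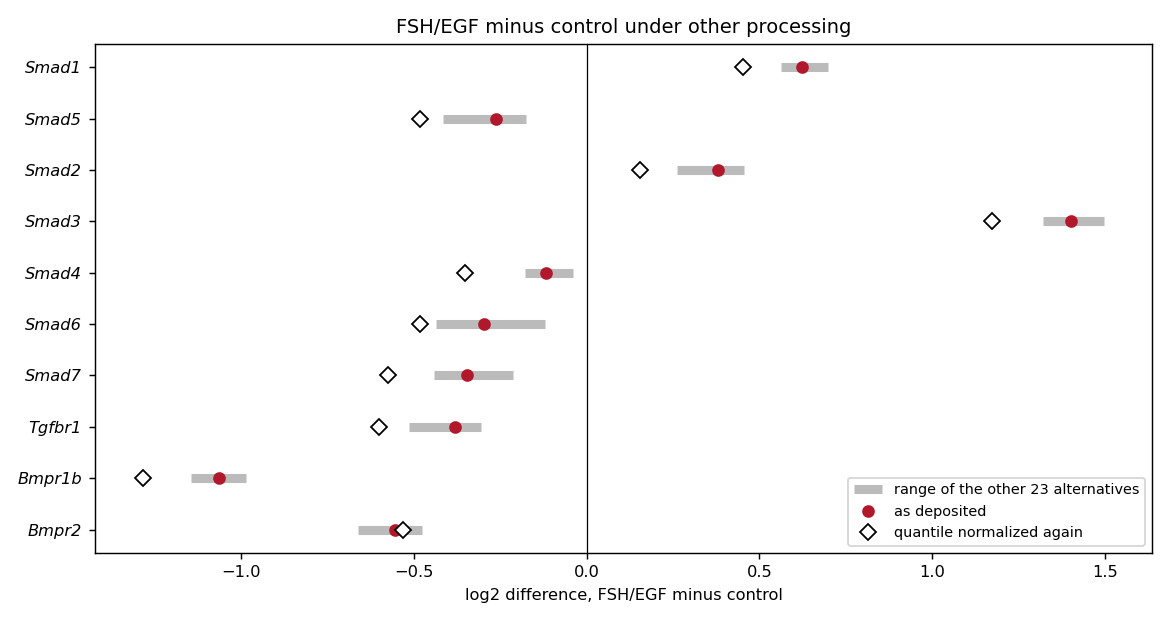
FSH/EGF minus control difference of each gene as deposited (red points), after renewed quantile normalization (diamonds) and over the other 23 alternatives (grey bars show their range). The diamonds lie left of the grey bars for 9 of the genes, and within the bar for Bmpr2 at -0.53.

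GDF9 minus control showed no change of any of the 10 genes past the threshold, and the background of this comparison was 0 of 35399 rows called, or 0%. At an unadjusted p under 0.05 there were 0 of the 10 genes and 1590 rows, and 0 rows passed in limma without moderated variances. Differences ran from -0.15 for Smad3 to 0.25 for Smad6. The arrays of GDF9 and control overlapped for all 10 genes, where 1.98% of rows did not overlap. Smad6 was at 0.25 ± 0.14 (95% interval -0.069 to 0.56; limma adjusted p = 0.971), Smad2 at 0.19 ± 0.11 (-0.061 to 0.44) and Smad3 at -0.15 ± 0.12 (-0.42 to 0.13). For Bmpr2 and Tgfbr1, the receptors of GDF9 itself, the differences were -0.090 ± 0.11 (95% interval -0.33 to 0.15) and -0.025 ± 0.16 (-0.37 to 0.32). Smad7 was at -0.11 ± 0.15 (-0.44 to 0.23) and Bmpr1b at -0.12 ± 0.095 (-0.32 to 0.091). Intervals for Smad1, Smad4 and Smad5 ran from -0.15 to 0.27, from -0.22 to 0.18 and from -0.26 to 0.35. The 95% intervals of all 10 genes lay within a change of 2-fold either way, and smaller changes remained possible at this number of arrays.

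FSH/EGF minus GDF9 shares the FSH/EGF arrays with the first comparison. It had 5 of the 10 genes called, 2 higher and 3 lower. Of all rows 22.5% were called, 13.6% higher and 8.96% lower, and of all genes 29.1%. With the dimmest 40% of rows left out, 7601 of 21239 rows were called. Arrays did not overlap for 6 of the 10 genes and for 26.8% of rows. Besides Smad3 and Bmpr1b, Smad1 was at 0.56 ± 0.095 (limma adjusted p = 0.000752), Bmpr2 at -0.46 ± 0.11 (adjusted p = 0.00832) and Smad6 at -0.54. Smad5 arrays did not overlap between these groups, but the difference of -0.31 ± 0.14 was not past the threshold (adjusted p = 0.144). In the order of group means, FSH/EGF stood at one end for all 10 genes. It was highest for Smad1, Smad2 and Smad3 and lowest for the other 7, and GDF9 and control, whose order varied, did not differ past the threshold for any gene. The share of all rows with FSH/EGF at one end was not counted.

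The stretches before the transcription starts of Smad3, Smad1, Bmpr2 and Bmpr1b are shown because these genes changed in opposite directions under the same treatment. RefSeq promoters of build GRCm38.p6 were listed for 7 of the 10 genes, with 12 starts, and Smad2, Smad4 and Smad7 were not matched. Given below are the 250 bases before the start of Smad3 (chr9:63757995-63758244, minus strand), Smad1 (chr8:79399429-79399678, minus strand), Bmpr2 (chr1:59764029-59764278, plus strand) and Bmpr1b (the farthest upstream of its 3 listed starts, chr3:141982265-141982514, minus strand), 5′ to 3′. Capitals mark matches, on either strand, to 4 short motifs: the core of the cAMP response element (TGACG), the AP-1 site (TGANTCA), the SMAD box (CAGAC) and the GC box (GGGCGG). No matches overlapped in these 4 stretches.
Smad3: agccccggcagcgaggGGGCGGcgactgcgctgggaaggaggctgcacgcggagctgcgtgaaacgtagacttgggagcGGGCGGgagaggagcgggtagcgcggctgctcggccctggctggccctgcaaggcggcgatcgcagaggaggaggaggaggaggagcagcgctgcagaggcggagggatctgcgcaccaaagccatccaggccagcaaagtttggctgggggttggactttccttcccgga
Smad1: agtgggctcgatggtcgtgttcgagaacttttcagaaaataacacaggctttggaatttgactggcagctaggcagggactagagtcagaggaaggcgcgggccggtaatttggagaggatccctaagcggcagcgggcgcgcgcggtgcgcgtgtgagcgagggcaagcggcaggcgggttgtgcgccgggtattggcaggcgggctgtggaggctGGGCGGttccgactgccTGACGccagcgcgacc
Bmpr2: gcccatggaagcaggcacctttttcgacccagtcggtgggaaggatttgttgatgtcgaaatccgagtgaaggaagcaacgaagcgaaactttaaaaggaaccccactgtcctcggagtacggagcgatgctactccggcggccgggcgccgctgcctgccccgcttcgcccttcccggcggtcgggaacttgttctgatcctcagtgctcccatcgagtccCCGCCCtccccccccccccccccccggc
Bmpr1b: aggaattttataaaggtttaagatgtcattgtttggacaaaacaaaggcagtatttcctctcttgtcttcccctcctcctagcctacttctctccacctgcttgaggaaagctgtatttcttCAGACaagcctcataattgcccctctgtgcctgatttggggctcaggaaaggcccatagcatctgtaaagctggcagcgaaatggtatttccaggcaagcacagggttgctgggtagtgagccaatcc
Smad3 held 2 GC boxes in a stretch of 69.2% G and C. Smad1 held 1 GC box and 1 core of the cAMP response element, Bmpr2 held 1 GC box, and Bmpr1b held 1 SMAD box in a stretch of 46.8% G and C. Of the 12 promoters of the 7 genes, 8 held a GC box, 4 a SMAD box (of Bmpr1b, Smad5 and Tgfbr1), 2 the core of the cAMP response element (of Smad1 and Smad5) and 0 an AP-1 site. The 12 were not all separate: 2 Smad5 promoters overlapped and shared their GC box, and 2 Bmpr1b promoters overlapped. Of 32851 promoters of the same length, 32.7% held a GC box, 42.2% a SMAD box, 17.8% the core element and 6.75% an AP-1 site. A match is a description of letters, and binding was not measured.

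The other genes of the pathway were described by lists of related genes, 59 in all, of which 58 were measured. With FSH/EGF, 17 rose and 11 fell relative to control, or 28 of 58, where 36.8% of all genes were called. That share is the background for each list below. With GDF9 0 were called in limma, where 6 had an unadjusted p under 0.05. Their median difference with FSH/EGF was 0.0049, against -0.063 over all rows.

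Receptors again went both ways. Of 5 other type I receptors 1 rose and 2 fell: Acvr1, a BMP type I receptor, rose by 1.03 ± 0.12, while Acvrl1 and the activin receptor Acvr1b fell by 0.55 and 0.51. The BMP receptor Bmpr1a was at 0.086 ± 0.12 (limma adjusted p = 0.606). Of 4 other type II receptors, Tgfbr2, which pairs with Tgfbr1 for TGF-beta, rose by 0.45 ± 0.063, and Amhr2, the receptor of anti-Müllerian hormone, was at 6.27 ± 0.16 with FSH/EGF and 8.44 ± 0.20 in control (mean and SD, n = 4 each). Of 6 co-receptors and decoys 1 rose and 2 fell. Tgfbr3, the co-receptor betaglycan, was at 5.48 ± 0.13 with FSH/EGF and 8.02 ± 0.13 in control, Tdgf1 changed by -1.21 ± 0.17, and the BMP co-receptor Rgmb by 0.78 ± 0.13. Smad9, the remaining BMP-branch SMAD, was at 6.68, 6.72, 6.75 and 6.55 with FSH/EGF, against 7.66, 7.64, 7.67 and 7.66 in control. Its change of -0.98 ± 0.063 (limma adjusted p = 1.50e-07) was thus opposite in sign to that of Smad1.

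Of 22 anchors, ubiquitin ligases, corepressors and phosphatases that act on SMADs, 7 rose and 1 fell. The corepressor Skil rose by 0.99 ± 0.096, the endosomal protein Hgs by 0.97 ± 0.100, the ubiquitin ligase Wwp2 by 0.73 ± 0.083 and Lemd3, which binds SMADs at the inner nuclear membrane, by 0.60 ± 0.20 (limma adjusted p = 0.0387, a call lost without control array 1, at 0.41, adjusted p = 0.0858). The corepressor Tgif2 fell by 0.57. The median of the list was 0.25. It was -0.063 over all rows, 0.19 over rows with a mean signal of 7 to under 9 and 0.080 over rows of 9 or more. The part of scaling in the list's median was not tested. Of 11 ligands 2 rose and 2 fell. Tgfb1 was at 11.08 ± 0.053 with FSH/EGF and 7.89 ± 0.13 in control, a rise of 3.19 ± 0.080 (limma adjusted p = 5.20e-11). Bmp6 rose by 0.82 ± 0.088, Bmp2 fell by 1.90 ± 0.24 and Tgfb3 by 0.63 ± 0.10.

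Among 7 measured genes that SMAD2 and SMAD3 are known to induce in other cells, 4 rose (Pmepa1 by 1.49 ± 0.098, Tgfbi by 1.28 ± 0.12, Skil and Ltbp1, the last by 0.72 ± 0.12) and Ccn2 fell by 0.69 ± 0.10. Of 8 genes known as BMP targets, 2 rose (Id1 by 1.64 ± 0.23 and Id4 by 1.42 ± 0.13) and 2 fell (Smad9, and Id3 by 0.68 ± 0.19). The median difference was 0.72 in the first list and -0.29 in the second. Smad6 and Smad7 belong to the second list and were not called.

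**Figure D4:**
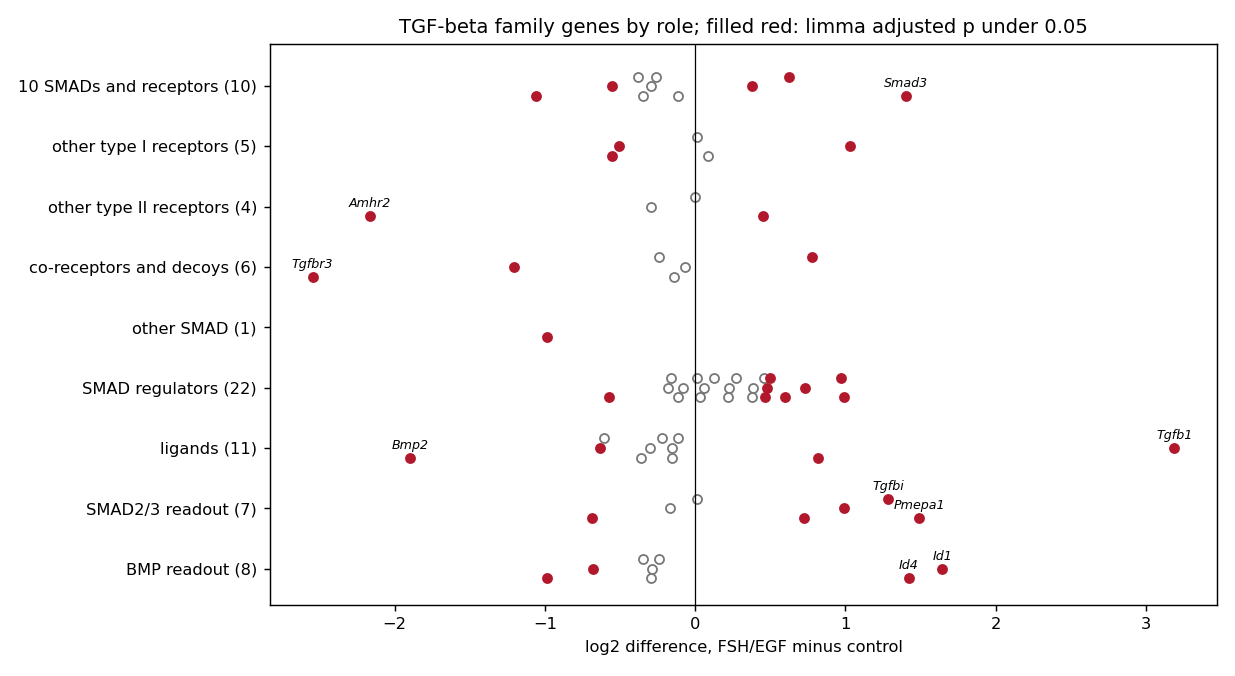
Log2 difference of FSH/EGF minus control for each gene of the pathway (points; vertical offsets only part the points), by role, with the number of measured genes in brackets; filled red points passed an adjusted p of 0.05 over all rows. Tgfb1 at 3.19 and Tgfbr3 at -2.55 are the extremes, and each receptor list holds changes of either sign.

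Over the 12 arrays, the genes whose values followed Smad3 most closely were Plin2 (Pearson r = 0.996), Wbp1l (r = 0.994) and Il17ra (r = 0.992). Plin2, a protein of the lipid droplet surface, rose by 2.35 ± 0.17 with FSH/EGF. Those closest to Bmpr1b were Csrnp3 (r = 0.994), Ctc1 (r = 0.993) and Adamts19 (r = 0.993), a metalloprotease gene that fell by 2.15 ± 0.13. These correlations rest on 12 arrays that share the split between FSH/EGF and the other groups, and 699 genes had r above 0.95 with Smad3 and 398 with Bmpr1b.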

How the data were processed

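The authors' deposited table held log2 signals of 35399 probe sets on 12 arrays, from 2.92 to 14.3, normalized before deposit. The submitters' processing notes list GCOS, Partek and RMA, with neither versions nor roles, and the genome build of the array design is not given in the sources used here. Symbols came from the platform annotation: 21789 rows had 1 symbol, 1621 several and 11989 were not listed. Where a gene had several probe sets, the one with the highest mean signal was used. Groups were compared with limma (version 3.58.1, R 4.3.3): a model with 1 mean for each group was fitted to all 12 arrays, variances were moderated, and p-values were adjusted over all rows (Benjamini-Hochberg) in each of 3 comparisons, with a threshold of 0.05. The model was tested on simulated data. Arrays give no read depth, and their number limits the precision. Arrays of the same group correlated at 0.971 to 0.995 (Pearson r), and no batch is given in the labels.

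The 10 genes, the lists and the tests were chosen with earlier results of these data known. Named from each list were up to 5 genes with the largest called changes among those whose FSH/EGF and control arrays did not overlap, and the 3 genes most like the called extremes. Bmpr1a was added after its value was seen. Alternatives were array weights, moderation with a trend, robustly or not at all, fits to only the groups compared, the 40% dimmest rows left out, renewed quantile normalization, equal medians, rows with 1 symbol, mean over probe sets, the replicate number as a block, each array left out, and 3 arrays left out together. Motifs were searched in the 250 bases before each RefSeq start.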

Additional observations from a re-analysis of the deposited data

Results flagged for a closer look

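Among the 10 genes and those named from the lists, 105 groups of 4 arrays were examined for 1 array far from the other 3 (Dixon's test of the gap to the nearest array, at its 95% critical value). Chance marks about 1 in 20 groups, and 4 were marked. Smad4 was at 9.34 on FSH/EGF array 3, against 9.44 on each of the other FSH/EGF arrays. Tgfbr3 was at 5.68 on FSH/EGF array 4, against at most 5.42 on the others. GDF9 array 1 was low for Rgmb, at 6.41 against 6.94 to 6.98, and for Tgif2, at 7.52 against 7.87 to 7.93.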

How the results depend on the processing

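Over 24 alternatives, Smad1, Smad3, Bmpr1b and Bmpr2 remained past the threshold for FSH/EGF minus control in all, with ranges of 0.45 to 0.70, 1.17 to 1.498, -1.28 to -0.98 and -0.66 to -0.48. Only array weights, renewed quantile normalization, equal medians and leaving out control or FSH/EGF arrays could change these differences. The rest of the 24 altered at most the spread and the adjustment. The 10 genes had 1 probe set each, so the mean over probe sets left them as they were. Leaving out a GDF9 array altered only the spread and the adjustment. Smad2 ran from 0.15 to 0.46 and lost its call in 5, among them with control arrays 1 and 4 and FSH/EGF array 3 left out together (0.33, adjusted p = 0.0584). With renewed quantile normalization, 9 of the 10 genes were called for FSH/EGF minus control and 8 for FSH/EGF minus GDF9, in place of 5 each. Of all 35399 rows 9085 and 7681 were then called, in place of 10269 and 7979. With 1 array left out, 4 to 7 and 4 to 6 of the 10 genes were called. The count of all rows called then ran from 8139 to 10801 and from 6679 to 9269. Deviations of same-numbered arrays correlated from -0.14 to 0.18 between FSH/EGF and control, from -0.39 to 0.22 between GDF9 and control, and from -0.070 to 0.21 between FSH/EGF and GDF9. For arrays of other numbers the ranges were -0.15 to 0.16, -0.35 to 0.39 and -0.30 to 0.28. With 4 arrays per group, these values cannot settle whether the replicate numbers pair the arrays. With the replicate number as a block 5 of the 10 genes were called in each comparison with FSH/EGF, of 9600 and 7547 rows. For GDF9 minus control, 0 of the 10 genes were called under all 24, and 0 to 1 rows with 1 array left out. Differences near 0 changed sign: with equal medians Smad4 was at 0.016 and Tgfbr1 at 0.012; Smad5 was at -0.10 with array weights, -0.013 after quantile normalization and -0.069 without the 3 arrays, where Smad7 was at 0.030. With 1 array left out Smad1 ran from -0.0015 to 0.12, Smad4 from -0.083 to 0.043, Smad5 from -0.10 to 0.13, Smad7 from -0.21 to 0.026 and Tgfbr1 from -0.16 to 0.11. The cause was not tested. Of the named list genes, Lemd3 lost its call in 12 alternatives, and Acvr1b (adjusted p = 0.0581) and Id3 (adjusted p = 0.0758) without the 3 arrays.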
